A study of Mus musculus with 3 samples.

Results

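The insulin-like growth factor (IGF) axis was described here through 9 mouse genes, the ligands Igf1 and Igf2, the receptor Igf1r and the binding proteins Igfbp2, Igfbp3, Igfbp4, Igfbp5, Igfbp6 and Igfbp7. They were chosen by name, with the Entrez identifiers of the count tables matched to mouse symbols, and are 9 of the 36530 features counted. All 9 were found, with between 17 transcripts of Igf2 and 150171 transcripts of Igfbp7 over the 12670 cells. Single cells came from 3 melanomas of mice on a C57BL/6 background (C57BL/6J per the study's methods), and each group was 1 tumor. The untreated tumor gave 4095 cells, the tumor that had regressed under vemurafenib, an inhibitor of mutant Braf kinase, gave 3726, and the tumor that had progressed under vemurafenib gave 4849. Per the study's methods the mice carried Braf LSL.V600E and Tyr.CreER among their alleles, in part with Rosa26 LSL.tdTomato, and tumors were started by 4-OH tamoxifen on flank skin, where Tyr.CreER acts in melanocytes. Which tumors carried the last allele is not given in the sources used here. The host tissue kept its own stroma, vessels and immune system.

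IGF1 and IGF2 are secreted peptides that signal through the receptor tyrosine kinase IGF1R to the insulin receptor substrates, PI3K and MAPK pathways. In tissue most of the peptide is held by secreted binding proteins, which prolong its life and keep it from the receptor until proteases such as PAPP-A cut them. IGFBP7 binds IGFs weakly and is better known as a protein of the vessel wall and matrix, and in skin fibroblasts are a main source of IGF1.

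Igfbp4, Igfbp6 and Igfbp7 held most of the binding protein transcripts in all 3 tumors, and their order changed between the tumors, so the bases before their transcription start sites are shown. Each sequence is the 250 bases upstream of a RefSeq start site in GRCm38.p6, read 5′ to 3′ on the strand of the gene and ending on the base before the start. Capitals mark matches, on either strand, to TATAAA, the TATA box, or to GGGCGG, the GC box. They also mark TGANTCA, a site of AP-1 factors, and ACGTG, the core of a hypoxia response element. The Igfbp4 window lay at chr11:99040994-99041243 on the plus strand, the Igfbp6 window at chr15:102143936-102144185 on the plus strand and the Igfbp7 window at chr5:77408046-77408295 on the minus strand. No feature of the GENCODE vM21 annotation of GRCm38 overlapped any of the 3 windows. In the RefSeq gene table the Igfbp4 span is wider, chr11:99040005-99052655, and its window lies inside that span.
Igfbp4: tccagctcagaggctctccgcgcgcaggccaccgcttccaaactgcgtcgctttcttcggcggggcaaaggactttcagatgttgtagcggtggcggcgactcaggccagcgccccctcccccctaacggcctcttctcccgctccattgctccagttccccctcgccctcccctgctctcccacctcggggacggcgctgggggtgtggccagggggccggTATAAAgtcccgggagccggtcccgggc
Igfbp6: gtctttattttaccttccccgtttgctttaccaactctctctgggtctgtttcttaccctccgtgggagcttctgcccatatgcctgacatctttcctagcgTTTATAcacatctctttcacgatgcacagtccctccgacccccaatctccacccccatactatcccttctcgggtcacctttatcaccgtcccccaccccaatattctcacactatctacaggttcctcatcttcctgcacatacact
Igfbp7: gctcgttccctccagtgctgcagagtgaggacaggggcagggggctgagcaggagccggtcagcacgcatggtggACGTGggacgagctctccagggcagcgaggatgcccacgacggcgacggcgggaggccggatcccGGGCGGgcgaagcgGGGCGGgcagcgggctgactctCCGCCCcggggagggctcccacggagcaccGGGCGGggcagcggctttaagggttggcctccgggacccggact
The Igfbp4 window held 1 TATAAA, whose first base was 28 bases before the start. The Igfbp6 window held 1 match to the same motif, read on the opposite strand and 148 bases before the start. The Igfbp7 window held no TATAAA, 4 GGGCGG and 1 ACGTG. Of the 32851 windows of this length in the table, 12.4% held TATAAA, 32.7% GGGCGG, 6.75% TGANTCA and 16.6% ACGTG on either strand. These matches describe the letters in the windows and nothing about binding. Among the other members, Igfbp2 (chr1:72824480-72852474) and Igfbp5 (chr1:72858065-72874865) are neighbours in the same build, whereas Igfbp3 lies beside Igfbp1 on chromosome 11, and Igfbp1 had 0 UMIs in every tumor, which allows levels of up to 0.135, 0.242 and 0.111 CPM.

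Levels are given as unique molecular identifiers (UMIs, 1 per captured transcript) of a gene per 1000000 UMIs of the same cells (CPM), with exact Poisson 95% intervals that cover counting error only. The libraries held 22202192 (untreated), 12413268 (regressed) and 26948940 (progressed) UMIs, with medians of 4496, 2658 and 4566 per cell. The deposited cell labels named 25 clusters, and for each tumor they were gathered into stroma (2628, 1918 and 3422 cells), tumor cells (48, 410 and 160), immune cells (1053, 957 and 683) and blood vessel cells (74, 48 and 28). Among the 4 compartments of each tumor, melanocyte genes were highest in tumor cells, fibroblast markers in stroma and endothelial markers in blood vessel cells. Melanocyte genes were at 1364, 2253 and 1035 CPM in tumor cells against 22.2, 93.7 and 36.2 CPM in stroma. Schwann cell markers in tumor cells were at 2035, 1547 and 2137 CPM, below the melanocyte genes only in the regressed tumor. In blood vessel cells fibroblast markers exceeded endothelial markers in both treated tumors, at 4347 against 2756 CPM and 4756 against 2668 CPM, but not in the untreated tumor. With 1 tumor in a group no difference has a replicate check, so no p-value is given, and treatment, mouse and library cannot be told apart. The regressed library stood apart from the other two, with haemoglobin genes at 3.96% of UMIs against 0.272% and 0.00848%, and with Y-linked transcripts at 220 CPM against 0.946 and 1.19 CPM. Almost all of its stroma was labelled Stroma10 (1537 cells) or Stroma9 (310 cells), clusters with no more than 7 cells in either other tumor. The clusters were made from the same counts, so differences between clusters are descriptions, and in summed values fewer cells of a type and less RNA per cell cannot be told apart.

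Igf1 was a stromal transcript in each tumor. In stroma it stood at 437 CPM in the untreated tumor, 337 CPM in the regressed tumor and 460 CPM in the progressed tumor. Stroma held 92.6%, 84.8% and 86.1% of the Igf1 UMIs and 63.4%, 51.8% and 65.3% of all UMIs. The stromal level was therefore lowest in the regressed tumor, at a log2 ratio to the untreated tumor of -0.38 (95% counting interval -0.45 to -0.30), which did not reach the 2-fold size used for calls. Igf1 UMIs were seen in 62.4%, 48.3% and 68.9% of stromal cells, and in 28.3%, 23.2% and 31.0% of those cells thinned to 1000 UMIs each. In immune clusters other than macrophages, taken here as the level of free transcript in the suspension, the thinned share did not pass 8.93% in any tumor, at median depths from 1252 to 7460 UMIs per cell.

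Among the stromal clusters the order of Igf1 differed between tumors. In the untreated tumor Stroma5 led with 594 CPM (553 to 637), followed by Stroma1 with 493 CPM and Stroma2 with 488 CPM, whose intervals overlapped. In the progressed tumor Stroma2 had 760 CPM (612 to 932) in 26 cells, and its interval overlapped that of Stroma3. In the regressed tumor Stroma10 and Stroma9 could not be separated, with 340 CPM (324 to 357) and 339 CPM (309 to 371). Outside stroma, macrophages carried Igf1, at 225 CPM (199 to 253) before treatment, 245 CPM (189 to 312) in the regressed tumor and 366 CPM (333 to 401) in the progressed one. Other immune clusters stayed between 16.4 and 56.3 CPM, so the macrophage level lay above them in every tumor. The Dividing cluster had 104 CPM (78.4 to 136), 29.2 CPM (10.7 to 63.5) and 331 CPM (304 to 360), so in the progressed tumor its 147 cells, with 559 UMIs, were a source of Igf1 like the macrophages, with 463. Its fibroblast markers ran from 3256 to 23498 CPM between tumors, and their part was not tested. Macrophages of the progressed tumor exceeded those of the untreated tumor by 0.70 on the log2 scale (0.48 to 0.92), short of 2-fold.

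Tumor cells carried less Igf1 than stroma, and its level differed between the tumors. It was 49.3 CPM in the untreated tumor from 13 UMIs, 216 CPM (181 to 257) in the regressed tumor and 113 CPM (91.5 to 138) in the progressed tumor. The log2 ratio of regressed to untreated was 2.14 (1.31 to 3.08), and that of progressed to untreated was 1.20 (0.36 to 2.16). The 48 untreated tumor cells limit both values. Leaving out the cell with most Igf1 UMIs in each tumor left 23.0, 184 and 91.9 CPM, in the same order. The summed fibroblast markers, a measure of stromal transcript in these cells, were at 4357, 4544 and 5694 CPM in tumor cells, against 46611, 40122 and 46982 CPM in stroma, and their part in these levels was not tested.

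Igf2, the fetal growth factor from the imprinted locus it shares with H19, was close to absent. Its UMIs numbered 13 in the untreated tumor and 2 in each of the others. Of the 13, 8 came from the Bloodvessel cluster. No ratio was drawn from these counts.

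Igf1r was low in stroma and tumor cells and higher in neutrophils. In stroma it was counted at 44.1 CPM without treatment, 43.3 CPM after regression and 39.2 CPM on progression. In tumor cells it stood at 37.9 CPM (18.2 to 69.7), 47.0 CPM (31.2 to 67.9) and 33.3 CPM (22.2 to 48.2). In stroma the log2 ratio of regressed to untreated was -0.03 (-0.24 to 0.18) and that of progressed to untreated was -0.17 (-0.33 to -0.01), so these intervals leave room only for small differences. In tumor cells the intervals were wide, from -0.77 to 1.52 for regressed against untreated. Among clusters of at least 20 cells, whose medians were 40.5, 35.8 and 35.6 CPM, neutrophils had the highest value in the untreated and the regressed tumor, at 82.8 CPM (69.0 to 98.6) and 158 CPM (116 to 210), with intervals that overlapped those of the next clusters, Undefined1 and Tumor1. The progressed tumor held 4 neutrophils, and there Stroma8 and Mastcells led with 89.4 CPM (52.1 to 143) and 80.7 CPM (51.7 to 120), which overlapped. Igf1r passed the size for a call in no compartment.

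**Figure D1:**
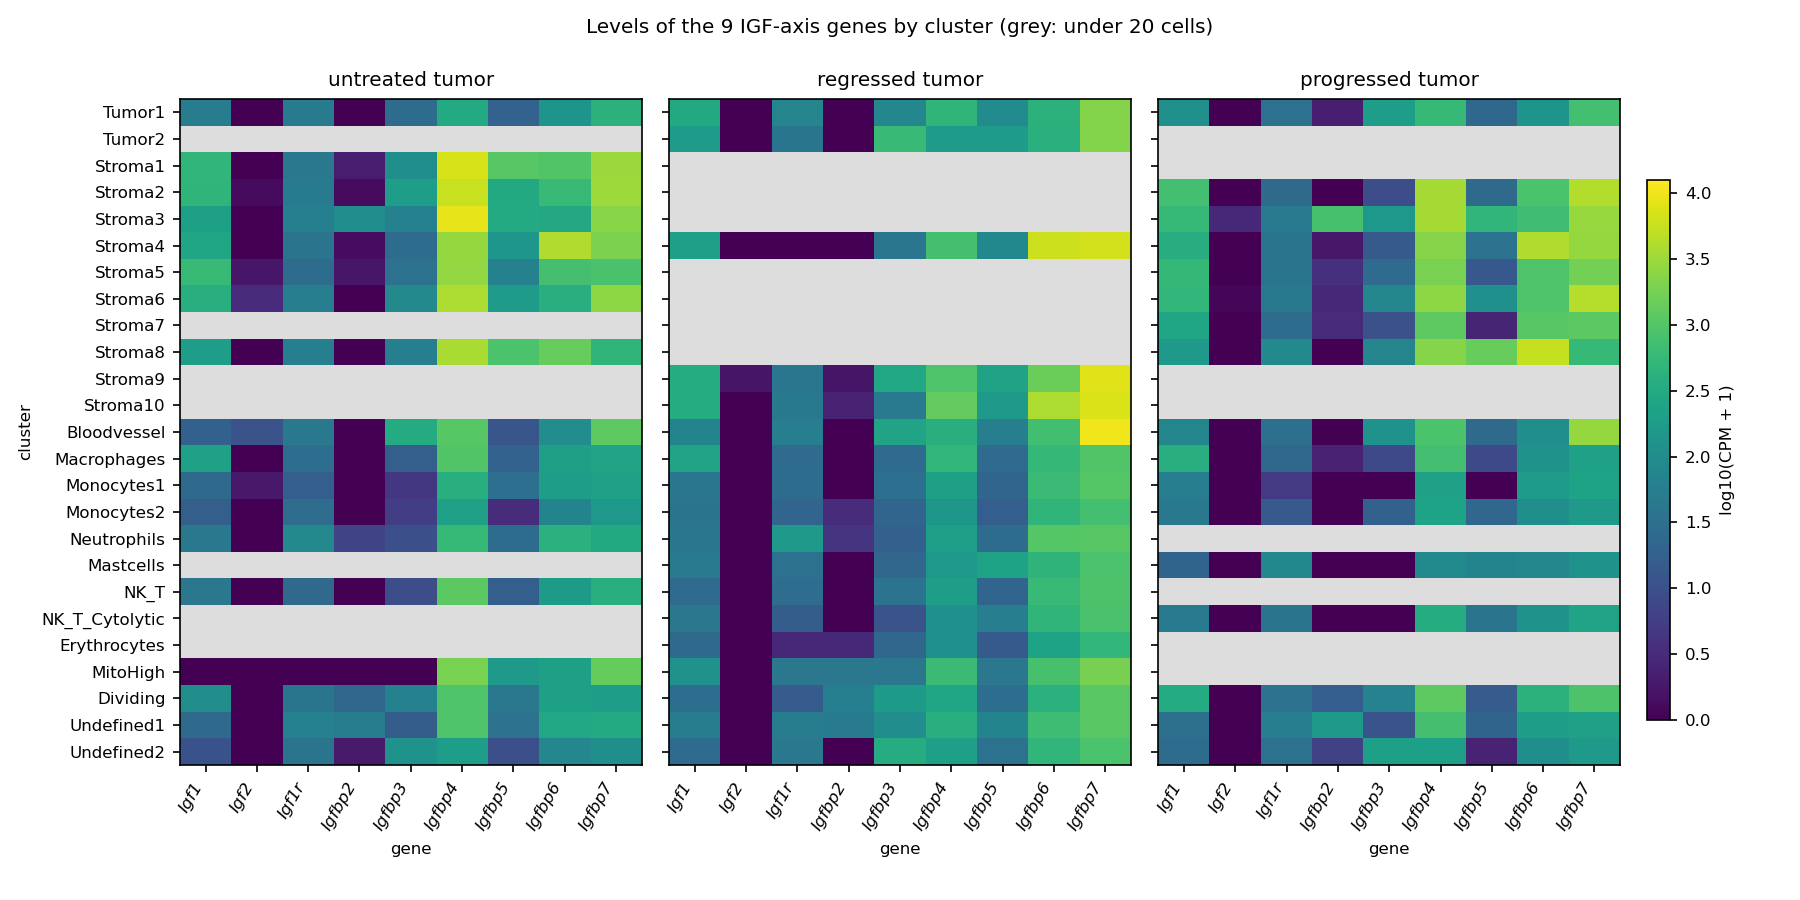
Levels of the IGF genes in each named cluster (rows) and tumor (columns), as log10(CPM + 1), with groups of fewer than 20 cells in grey. Igf1 is bright in stroma and macrophages, Igf1r is faint in most clusters, and Igfbp4, Igfbp6 and Igfbp7 are bright across stroma, with Igfbp7 at 10139 CPM in blood vessel cells of the regressed tumor.

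Of the binding proteins, which each carry an N-terminal domain that contacts the IGF peptide, Igfbp4, Igfbp6 and Igfbp7 outnumbered the rest in stroma. UMIs count 1 end of each transcript and are not scaled by transcript length, so their shares are shares of captured molecules. In stroma Igfbp4 made up 53.9% of the binding protein UMIs in the untreated tumor, 9.70% in the regressed tumor and 32.0% in the progressed tumor. Igfbp7 made up 27.0%, 61.1% and 41.6%, and Igfbp6 made up 13.6%, 26.6% and 24.2%. Igfbp4 was thus the most frequent binding protein transcript in untreated stroma, and Igfbp7 in the stroma of both treated tumors.

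Counted cluster by cluster, the leading binding protein differed between the tumors. Only 12 clusters had at least 20 cells in both the untreated and the regressed tumor. Igfbp4 had the most UMIs of the binding proteins in 15 of the 18 untreated clusters with at least 20 cells, the exceptions being Stroma4 (Igfbp6), Bloodvessel and Tumor1 (Igfbp7). In the regressed tumor Igfbp7 had the most in 18 of 18 clusters. Among them were Erythrocytes and Neutrophils, where it made up 57.2% and 45.6% of the binding protein UMIs. Free transcript in the suspension can reach every cluster of a tumor, and its part in this order was not tested. In the progressed tumor Igfbp4 led in 8 of 17, Igfbp7 in 6, Igfbp6 in Stroma4 and Stroma8, and Igfbp3 in Undefined2. Immune cells are among these, and in the progressed tumor Igfbp4 made up 54.4% of their binding protein UMIs where stroma had more Igfbp7. The immune clusters differed in this. Igfbp4 led in Macrophages, where its share was 67.2%, and in Monocytes2 and NK_T_Cytolytic. Igfbp7 led in Mastcells, with 34.9% against 24.8% of Igfbp4, and in Monocytes1, with 37.5% against 33.8%. In immune clusters of the regressed tumor there were 1.04 to 1.88 UMIs of Igfbp7 for each UMI of Igfbp6, against 2.29 in stroma and 5.35 in tumor cells.

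**Figure D2:**
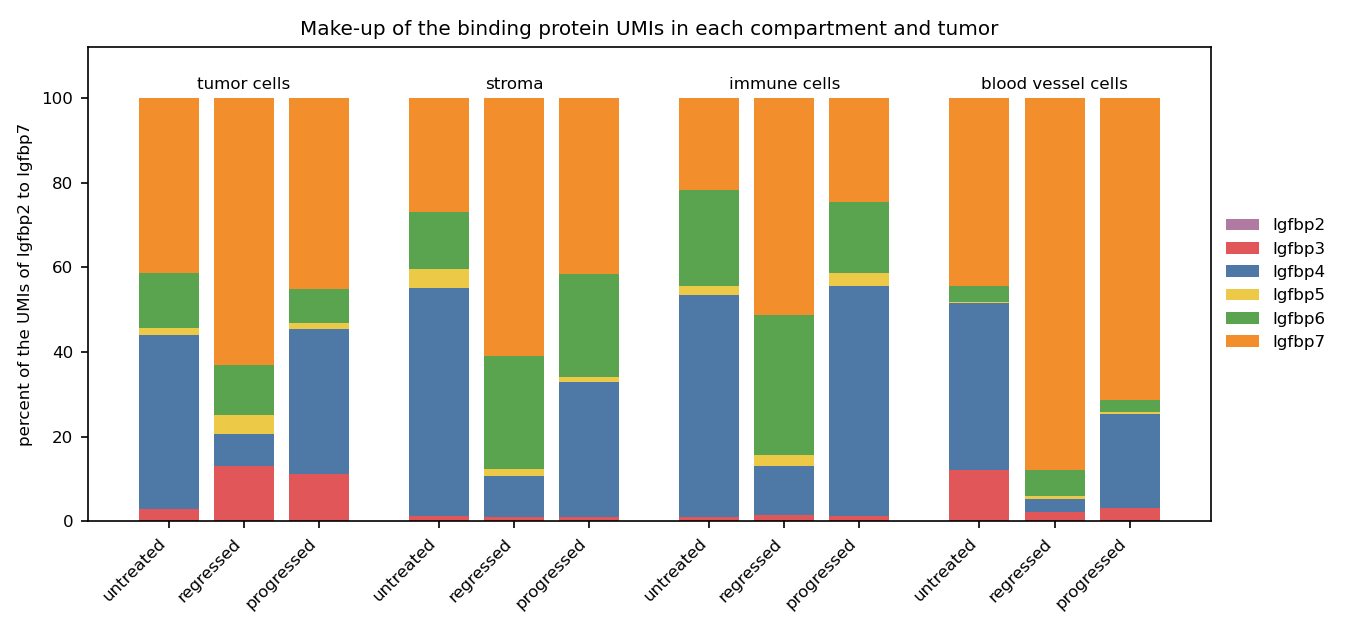
Share (percent) of all binding protein UMIs taken by each of the 6 binding proteins in stroma, tumor cells, immune cells and blood vessel cells of each tumor, as stacked bars that sum to the whole. The Igfbp4 band takes 53.9% of untreated stroma and 9.70% of regressed stroma, and the Igfbp7 band takes 87.9% in blood vessel cells of the regressed tumor.

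Igfbp4, a binding protein that restrains IGF until PAPP-A cleaves it, was lower in the stroma of both treated tumors. Untreated stroma had 5224 CPM, regressed stroma 1209 CPM and progressed stroma 2166 CPM. Relative to untreated stroma the log2 ratio was -2.11 (-2.14 to -2.08) in the regressed and -1.27 (-1.29 to -1.25) in the progressed tumor. Igfbp4 UMIs were found in 99.0%, 81.0% and 94.9% of stromal cells, and in 92.9%, 57.8% and 77.1% of those thinned to 1000 UMIs. In the untreated tumor Stroma3 had 8735 CPM (8513 to 8961) and Stroma1 had 7144 CPM (7048 to 7241), and the intervals of these leading clusters did not overlap.

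The stromal clusters present in more than 1 tumor had lower Igfbp4 after treatment as well. In Stroma4 it went from 2873 CPM in the untreated to 768 CPM (462 to 1199) in 20 regressed cells and 2283 CPM in the progressed tumor. In Stroma5 it was 2746 CPM in the untreated and 1893 CPM in the progressed tumor. Progressed stroma lay below untreated stroma in 6 of 6 clusters with at least 20 cells in both, which all come from the same tumors. Of the 6, 1 passed the 2-fold size, where 1.42% to 4.46% of all features were called lower in a cluster. The stromal difference was larger in the sum than within most clusters, and Stroma1 and Stroma2 were nearly all untreated cells. In tumor cells Igfbp4 was at 368, 255 and 578 CPM, and its log2 ratio of progressed to regressed was 1.18 (0.91 to 1.45), though within Tumor1 alone it was 0.21. In regressed Tumor1 1 cell held 40 of the 73 Igfbp4 UMIs, and without the richest cell of each tumor the Tumor1 levels were 244 CPM (168 to 343) in the regressed and 502 CPM (454 to 553) in the progressed tumor.

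Igfbp6, which prefers IGF2 as its ligand, was highest in the stroma of the regressed tumor. Stroma had 1314 CPM in the untreated, 3323 CPM in the regressed and 1639 CPM in the progressed tumor. Regressed stroma exceeded untreated stroma by 1.34 on the log2 scale (1.31 to 1.37), and progressed stroma differed from regressed by -1.02 (-1.05 to -0.99). The last value was 0.04 over the stromal clusters that had 10 or more cells in all 3 tumors, each given the same weight. These shared clusters were Stroma3, Stroma4, Stroma6 and Stroma8, with 12, 20, 13 and 18 of the 1918 regressed stromal cells. Stroma4 was rich in Igfbp6 in each tumor, with 4101 CPM (4024 to 4180), 6021 CPM (5093 to 7069) and 4034 CPM (3969 to 4099). The untreated and progressed intervals overlapped there and the regressed one lay above them, with a log2 ratio of progressed to regressed of -0.58 (-0.81 to -0.34). Stroma8 went from 1387 CPM (1186 to 1613) in 23 untreated cells to 5526 CPM (5197 to 5871) in 21 progressed cells.

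In tumor cells Igfbp6 did not exceed the highest immune cluster. They had 117, 406 and 133 CPM, and immune clusters other than macrophages ran from 70.3 to 420 CPM, from 456 to 1052 CPM and from 77.4 to 185 CPM in the same tumors. The tumor cell level lay within or below the immune range in all 3, so its log2 ratio of 1.79 between regressed and untreated tumor cells is a difference between levels that immune clusters also reached.

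Igfbp7 was highest in the regressed tumor in every compartment. Stromal cells of the untreated tumor had 2613 CPM, those of the regressed tumor 7615 CPM and those of the progressed tumor 2820 CPM. Relative to the untreated level these were log2 ratios of 1.54 (1.52 to 1.56) and 0.11 (0.09 to 0.13). Stroma9 had 8389 CPM (8237 to 8543) and Stroma10 had 7504 CPM (7427 to 7581) in the regressed tumor. Stroma6, which held 1255 of the progressed cells, went from 2532 CPM (2391 to 2679) in the untreated to 4405 CPM (4351 to 4460) in the progressed tumor. Progressed stroma lay above untreated stroma in 6 of 6 clusters, which all come from the same tumors. Only 1 was past 2-fold, Stroma5 with a log2 ratio of 1.10, where 2.29% to 7.42% of all features were called higher in a cluster.

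Blood vessel cells showed the widest difference in Igfbp7. They had 1222 CPM (1146 to 1302) in 74 untreated cells, 10139 CPM (9717 to 10574) in 48 regressed cells and 2840 CPM (2582 to 3116) in 28 progressed cells. None of these intervals overlapped, and the log2 ratio of regressed to untreated was 3.05. Endothelial markers were at 2900, 2756 and 2668 CPM in the same cells, and lymphatic endothelial markers at 624, 159 and 337 CPM. Neutrophil markers were at 2487, 867 and 6.37 CPM there. Fibroblast markers were at 1339, 4347 and 4756 CPM and pericyte or smooth muscle markers at 24.4, 149 and 38.2 CPM, and their part in the difference was not tested.

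The other members were less plain in blood vessel cells. Igfbp4 had 1083, 378 and 879 CPM, lower in the regressed tumor than in either other. Igfbp6 had 103, 718 and 108 CPM, each within the immune range of its tumor. In the regressed tumor 1 cell held 61 of the 154 Igfbp6 UMIs. Without it the level was 447 CPM, below the 456 CPM of the lowest immune cluster other than macrophages. Igf1 had 18.0, 70.0 and 76.4 CPM from 14, 15 and 12 UMIs. Its log2 ratio of progressed to untreated was 2.09 (0.85 to 3.31), and without the richest cell of each tumor it was 0.92 (-1.19 to 2.67).

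Tumor cells had 371 CPM (301 to 453), 2171 CPM (2054 to 2293) and 761 CPM (703 to 822) of Igfbp7. The immune clusters other than macrophages reached 380, 1096 and 247 CPM, so the untreated tumor cells lay below the highest of them and those of both treated tumors above. Tumor1 and Tumor2 of the regressed tumor could not be separated, with 2191 CPM (1962 to 2441) and 2164 CPM (2030 to 2305). In cells thinned to 1000 UMIs, 40.0%, 84.3% and 52.9% of tumor cells held an Igfbp7 UMI, against 51.7 to 63.7% of the immune clusters in the regressed tumor. Only 166 of the 410 regressed tumor cells were deep enough to be thinned, since their median depth was 832 UMIs.

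**Figure D3:**
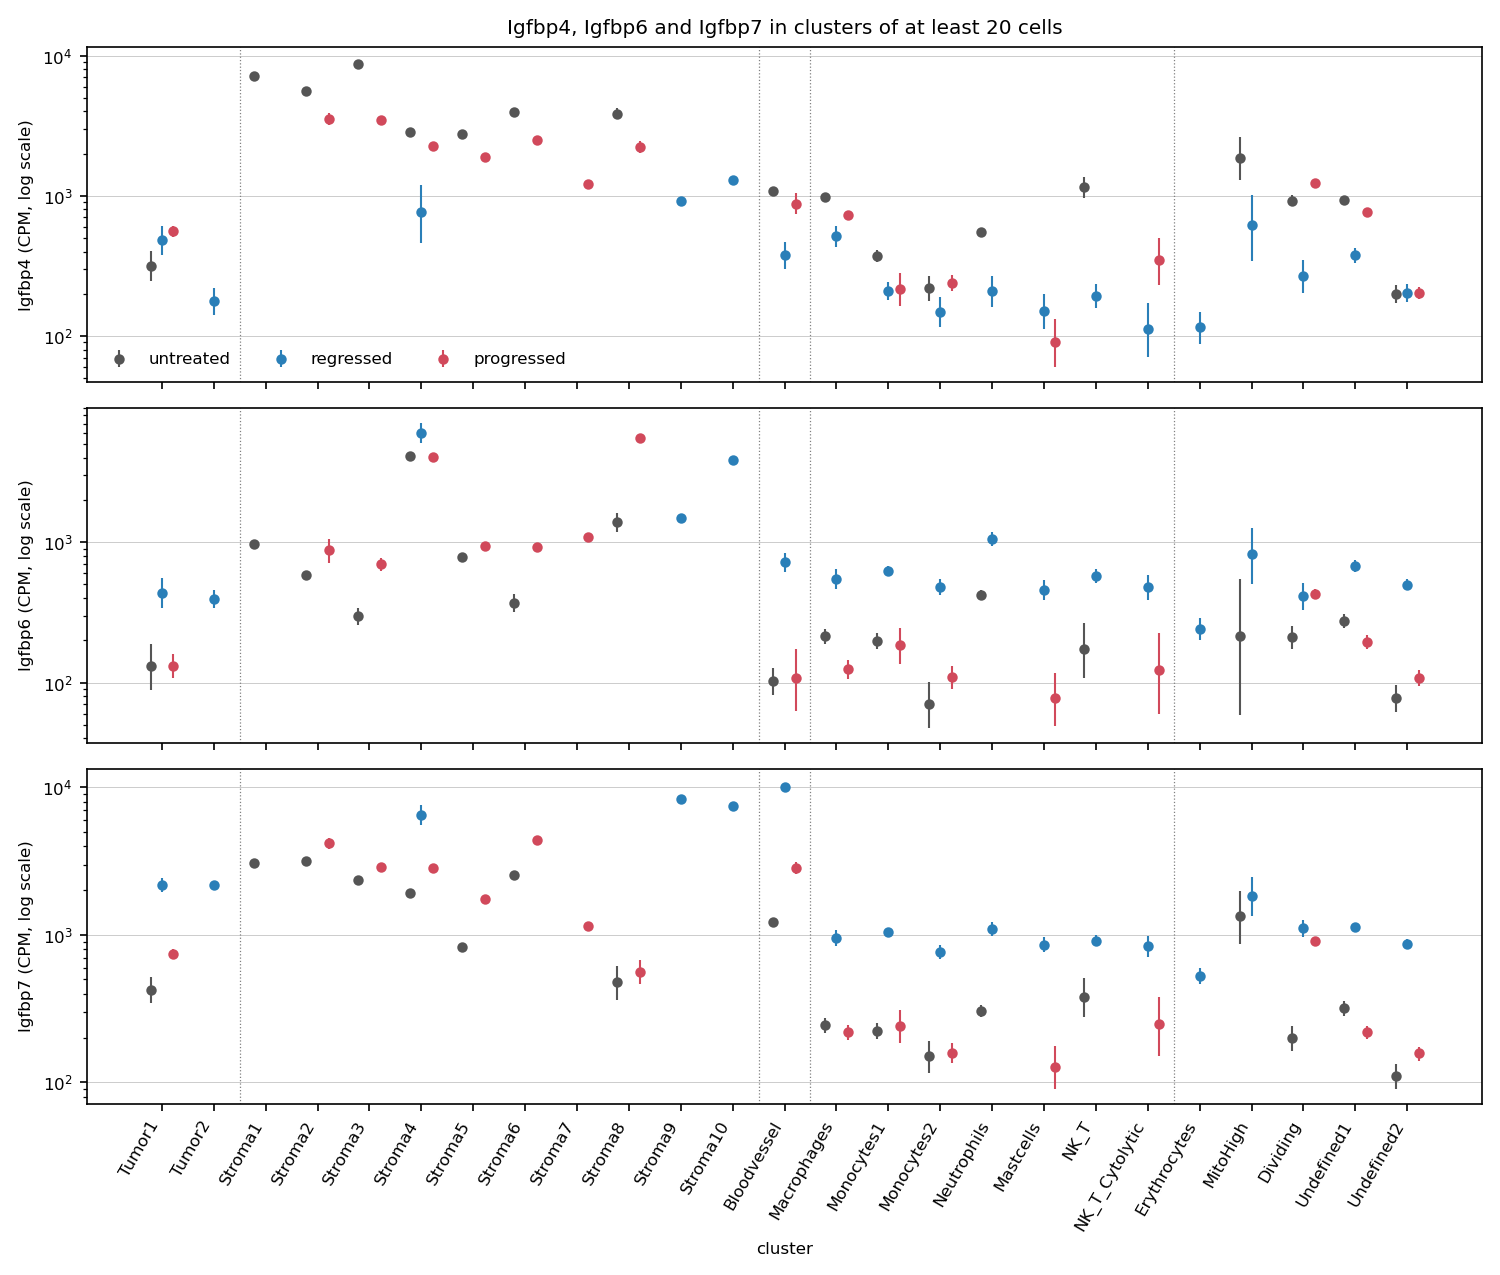
Igfbp4, Igfbp6 and Igfbp7 in each cluster with at least 20 cells, in CPM on a log axis, coloured by tumor, with 95% counting intervals. Igfbp7 of the regressed tumor lies above the untreated tumor in 12 of 12 clusters that have both, and Igfbp4 lies below it in 10 of 12.

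Across the clusters with at least 20 cells in both tumors compared, Igfbp7 of the regressed tumor exceeded that of the untreated one in 12 of 12, and in 11 it passed the rule for a call, at least 2-fold with a counting interval that leaves out no difference and at least 20 UMIs. Of all features with that many UMIs, between 3.10% and 24.6% were called higher in a cluster. Igfbp6 was higher in 12 of 12 with 10 called, and Igfbp4 was lower in 10 of 12 with 7 called, where between 0.720% and 19.6% of features were called lower. From the regressed to the progressed tumor Igfbp7 was lower in 11 of 11 clusters, Igfbp6 in 10 and Igfbp4 higher in 9. Only 1 of the clusters shared by the regressed and untreated tumors was stromal. Of the 12, 5 were immune, where the regressed tumor's macrophages had 516 CPM (434 to 609) of Igfbp4 and its other immune clusters 113 to 210 CPM. Immune clusters other than macrophages were taken above as the level of free transcript. The part of free transcript in the counts for Igfbp7, Igfbp6 and Igfbp4 was not tested.

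Igfbp3, the main carrier of circulating IGF, stood out in tumor cells of the treated tumors. They had 26.5 CPM in the untreated tumor from 7 UMIs, 451 CPM (399 to 509) in the regressed and 186 CPM (158 to 217) in the progressed tumor. Against the untreated tumor the log2 ratio was 4.09 (3.03 to 5.42) in the regressed and 2.81 (1.73 to 4.15) in the progressed tumor. Immune clusters other than macrophages did not pass 9.20, 35.3 and 17.8 CPM, so both treated tumors lay well above them. Without the cell with most Igfbp3 UMIs in each tumor, the ratios were 5.77 (3.90 to 8.82) and 4.27 (2.39 to 7.33). The untreated side then rested on 2 UMIs, so the rise of these ratios says little.

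The cells behind the regressed value were mostly of another cluster. Tumor2, with 349 regressed cells and 4 in each other tumor, had 578 CPM (509 to 653) of Igfbp3. Tumor1 had 27.2 CPM (10.0 to 59.2) in 44 untreated cells, 79.4 CPM (41.0 to 139) in 61 regressed cells and 187 CPM (159 to 219) in 156 progressed cells. Within Tumor1 the progressed cells were therefore the higher, with a log2 ratio to the regressed of 1.24 (0.39 to 2.22), whereas over all tumor cells it was -1.28.

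In stroma Igfbp3 stood at 116, 120 and 42.8 CPM, lowest in the progressed tumor, with a log2 ratio to the untreated of -1.44 (-1.57 to -1.31). That ratio turned to 0.45 over the shared stromal clusters given the same weight. Of these, Stroma3 had 33 of its 83 progressed UMIs in 1 cell. Of 6 stromal clusters with at least 20 cells in both tumors, 4 were lower in the progressed tumor and 2 higher. In a cluster 1.42% to 4.46% of all features were called lower and 2.29% to 7.42% higher, and of the 6, 2 were called lower and 1 higher. Stroma2, left out of the shared clusters, with 189 CPM (178 to 200) in 1144 untreated cells, held 26 progressed cells. Stroma9 of the regressed tumor had 273 CPM (246 to 302) and Stroma10 49.0 CPM (43.0 to 55.6). Blood vessel cells had 332 CPM (293 to 376), 243 CPM (181 to 318) and 127 CPM (77.8 to 197), but 141 of the 259 untreated UMIs came from 1 cell and without it that level was 157 CPM. Undefined2, which carried keratinocyte markers at 31412 to 32120 CPM, had 124, 342 and 204 CPM of Igfbp3 in tumors of the same order.

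Igfbp5, which binds matrix as well as IGF, was lower in the stroma of both treated tumors. Untreated stroma had 416 CPM, regressed stroma 197 CPM and progressed stroma 80.8 CPM. Relative to untreated stroma these were log2 ratios of -1.07 (-1.16 to -0.99) and -2.36 (-2.45 to -2.28). Stroma1, nearly all untreated cells, held 3168 of the 5850 untreated stromal UMIs, at 1073 CPM (1036 to 1111). Over the shared stromal clusters given the same weight the ratios turned to 0.86 and 0.44. Of 6 stromal clusters with at least 20 cells in both tumors, 4 were lower in the progressed than in the untreated tumor and 2 higher. Of the 6, 3 were called lower and 0 higher, where 1.42% to 4.46% of all features were called lower in a cluster. In Stroma8, a small cluster rich in Igfbp5 in every tumor, it stood at 878 CPM (720 to 1061) in 23 untreated cells, 2511 CPM (2157 to 2905) in 18 regressed cells and 1414 CPM (1250 to 1594) in 21 progressed cells. The untreated level, highest in the stromal sum, was the lowest here.

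In tumor cells Igfbp5 was below the level of stroma in each tumor. In the regressed tumor Mastcells had the highest value of the 18 clusters with at least 20 cells. Its interval overlapped that of Stroma9, the next. Tumor cells had 15.2 CPM from 4 UMIs, 154 CPM (124 to 189) and 22.6 CPM (13.6 to 35.3). Most of the progressed UMIs were in 1 cell. Without the richest cell of each tumor the progressed level was 3.62 CPM and the regressed level 125 CPM. The untreated and the progressed level then rested on 3 UMIs each, so their order was left undecided. The regressed value lay above the immune clusters of that tumor other than Mastcells, which ran from 16.1 to 56.5 CPM. Mastcells had 237 CPM (187 to 296), with 41.5% of 106 regressed cells and 18.8% of 85 progressed cells holding an Igfbp5 UMI, against 3.70% in the lowest immune cluster of the regressed tumor. In cells thinned to 1000 UMIs, 20.2% of regressed Mastcells held one and no other immune cluster of that tumor passed 7.14%.

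Igfbp2, which also binds integrins, was confined to few cells. Stromal levels were 5.33 CPM without treatment, 5.91 CPM in the regressed and 26.9 CPM in the progressed tumor, from 75, 38 and 473 UMIs. The log2 ratio of progressed to untreated was 2.34 (1.98 to 2.71). Stroma3 held 68 of the untreated and 440 of the progressed UMIs. There Igfbp2 went from 101 CPM (78.2 to 128) in 120 cells to 798 CPM (725 to 876) in 88 cells, and 12 regressed cells had 812 CPM (548 to 1159). A single progressed cell held 269 of the 440 UMIs, and without the richest cell of each tumor the untreated level was 56.9 CPM and the progressed 322 CPM. The share of Stroma3 cells with an Igfbp2 UMI was 10.0%, 16.7% and 26.1%. Over the shared stromal clusters given the same weight the log2 ratio of progressed to regressed was -0.02 in place of 2.18. Undefined1, with keratinocyte markers at 9352 to 14286 CPM, was another source, at 54.3 CPM (40.7 to 71.0), 46.8 CPM (31.3 to 67.2) and 159 CPM (140 to 180). Among regressed clusters with at least 20 cells Dividing led with 58.3 CPM, and its interval overlapped that of Undefined1. In the progressed tumor 7 of the 147 Dividing cells held 27 Igfbp2 UMIs.

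Counted over compartments, 5 of the 7 members with at least 20 UMIs were called in tumor cells between the regressed and the untreated tumor, all higher, where 17.2% of all features were called. Igf2 and Igfbp2 had too few UMIs there, and Igf2 in every compartment. The 5 were Igf1, Igfbp3, Igfbp5, Igfbp6 and Igfbp7, the median log2 ratio of the 7 was 2.14, and that of all features was 0.11. Within Tumor1 alone 3 were called, and Igfbp6 did not pass the level of immune clusters of the regressed tumor. Progressed tumor cells had 3 higher and 0 lower of 7 against the untreated, with 9.80% of features called, and 1 higher and 4 lower against the regressed, with 14.6% called. In stroma 2 were higher and 2 lower of 8 between regressed and untreated (19.6% of features called), 1 higher and 4 lower between progressed and regressed (19.7%), and 1 higher and 3 lower between progressed and untreated (8.49%). The comparisons share tumors, so they are not independent of each other.

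In blood vessel cells 4 members were called higher and 1 lower of 7 between regressed and untreated (17.8% of features called). There the progressed tumor had 2 higher and 1 lower of 6 against the untreated (10.2%) and 1 higher and 2 lower of 5 against the regressed (15.9%). Of those 3 against the untreated, Igf1 and Igfbp3 were lost without the richest cell of each tumor, Igfbp3 going from -1.38 to -0.79 (-1.74 to 0.04). In immune cells the counts were 3 higher and 1 lower of 7 between regressed and untreated (28.0%), 2 higher (3.57% of features called higher) and 4 lower (15.4% called lower) between progressed and regressed and 1 higher between progressed and untreated (14.0%). The last was Igf1, at 84.2 CPM in untreated and 177 CPM in progressed immune cells. The share of macrophages among immune cells differed too, with 312 of 1053, 143 of 957 and 339 of 683 cells. Scaling by trimmed means shifted all log2 ratios of a comparison alike, by up to -0.59 in immune cells and 0.31 in stroma.

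**Figure D4:**
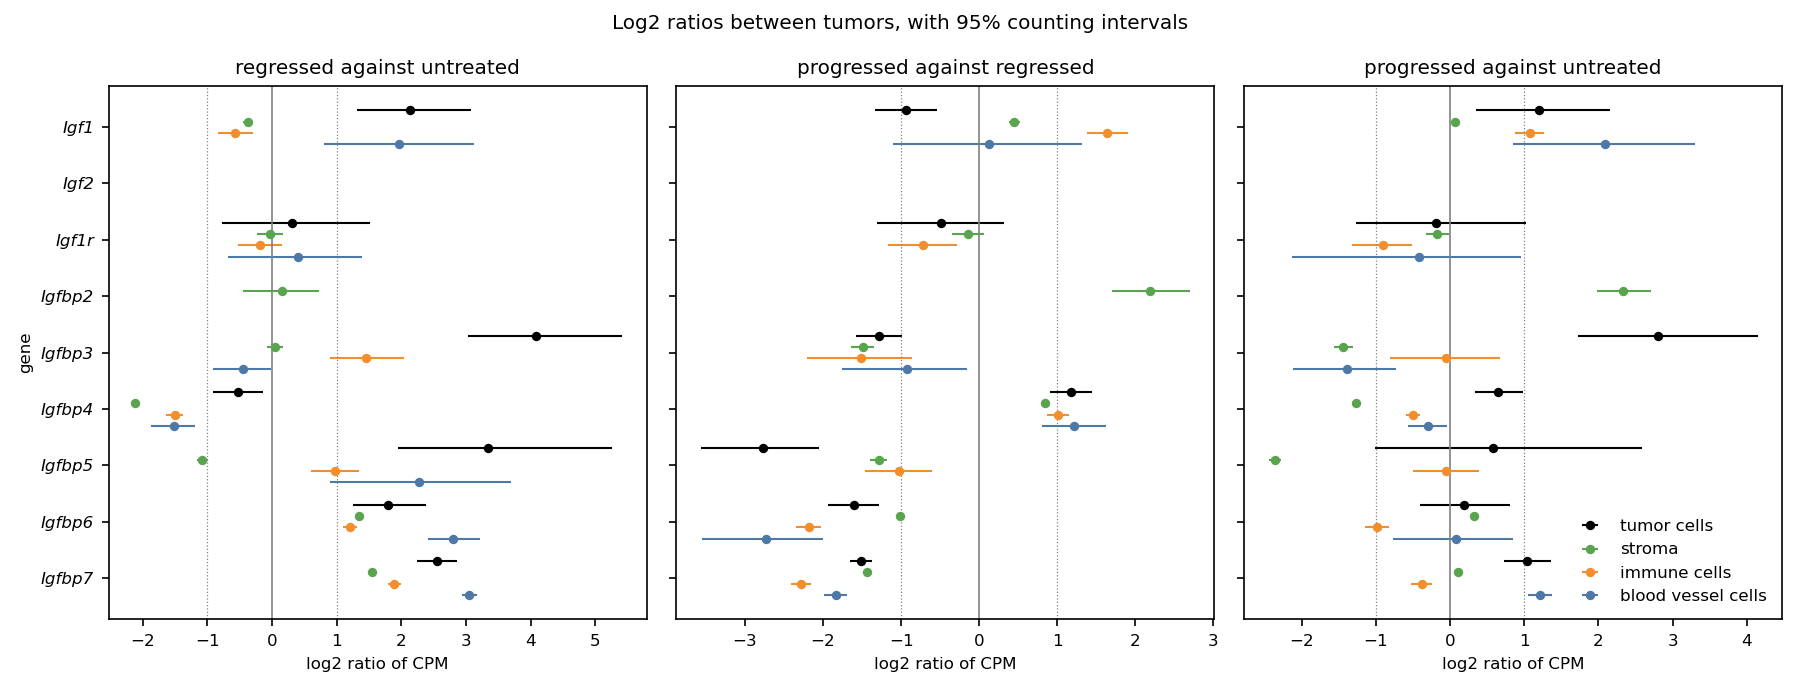
Log2 ratios of CPM between tumors for each IGF gene in stroma, tumor cells, immune cells and blood vessel cells, with 95% counting intervals and dotted lines at 2-fold. Igfbp7 of regressed against untreated lies at 1.54 in stroma, 2.55 in tumor cells and 3.05 in blood vessel cells, whereas Igfbp4 lies at -2.11 in stroma and -0.53 in tumor cells.

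Across the 53 groups of cluster and tumor with at least 20 cells, each member was set beside the genes whose levels followed it most closely. The measure was Pearson's r of log2 CPM over 10268 features, and the groups share tumors, libraries and depth. Igf1 was closest to Olfml3 (r = 0.87) and Serpinf1 (0.83). Igfbp4 was closest to Bgn (0.88), Fstl1 (0.87) and Col1a2 (0.86), the last a collagen chain and Bgn a matrix proteoglycan. Igfbp6 was closest to Scara3 (0.87) and Bmper (0.85), and Igfbp7 to Abi3bp (0.84) and Lamb1 (0.82). Igfbp5 was closest to Clec3b (0.79), Adamts5 (0.79) and Lox (0.79). Igfbp3 followed Myo10 (0.76) and Maoa (0.74), and Igfbp2 followed Col7a1 (0.72). Igf1r had no close companion, with Cpne3 at 0.68. Between members the closest pairs were Igf1 with Igfbp4 (0.69) and Igfbp6 with Igfbp7 (0.66).

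Other genes of the pathway numbered 19, of which 3 to 13 had 20 UMIs or more, depending on the comparison. In stroma 2 were called higher and 3 lower of 13 between regressed and untreated (19.6% of all features called), 1 higher and 1 lower of 12 between progressed and regressed (19.7%), and 1 higher and 2 lower of 13 between progressed and untreated (8.49%). In tumor cells the counts, in the same order, were 0 higher and 1 lower of 4 (17.2%), 0 of 6 (14.6%), and 0 higher and 1 lower of 4 (9.80%). Immune cells had 3 higher and 1 lower of 7 (28.0%), 0 higher and 2 lower of 6 (3.57% of features higher and 15.4% lower), and 0 higher and 1 lower of 7 (14.0%). In blood vessel cells 2 were higher of 5 (17.8%), 0 of 3 called (15.9%) and 1 higher of 5 (10.2%). Pappa, the protease that cleaves Igfbp4, had 8.24 CPM in untreated stroma, 26.6 CPM in regressed stroma and 8.75 CPM in progressed stroma. Its regressed level was the higher, by 1.69 on the log2 scale (1.34 to 2.04). Stromal Igfbp4 was lowest in the same tumor, and a link between these transcripts was not tested. Stc1, a stanniocalcin, a family that inhibits this protease, was at 1.35, 0.778 and 13.5 CPM, and 215 of its 238 progressed stromal UMIs were in Stroma6.

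Below the receptor, Irs2, an adaptor of the IGF and insulin receptors, was at 24.2, 8.41 and 15.5 CPM in stroma. Grb10, an adaptor that restrains both receptors, was at 75.9, 32.4 and 32.9 CPM, lower in both treated tumors. Its relative Grb14 was at 53.0, 10.1 and 22.6 CPM in tumor cells, from 14, 6 and 19 UMIs. H19, the noncoding neighbour of Igf2, had 58 UMIs in untreated stroma, 0 in regressed stroma and 4 in progressed stroma. Taking a floor of 3 UMIs over regressed stroma, its level there was at least 8.82-fold lower than in the untreated.

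The other receptors of the family were low. Igf2r, which takes IGF2 up for degradation, was at 31.8, 31.4 and 24.2 CPM in stroma. Insr, the insulin receptor, was at 11.7, 17.4 and 10.1 CPM there and was richest in blood vessel cells, with 84.7 CPM (65.5 to 108), 238 CPM (177 to 313) and 146 CPM (92.8 to 220). The regressed vessel cells lay above the untreated ones without overlap, by 1.49 on the log2 scale, and the progressed interval overlapped both.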

How the data were processed

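Single cells of 3 tumors were captured with a droplet 3′ chemistry and sequenced by the authors, who aligned reads with GSNAP to GRCm38/mm10, counted unique reads on sense exons, left out cells with fewer than 300 UMIs and clustered the cells with Seurat 2.2.0. The annotation release is not given in the sources used here. The UMI counts were used as the authors deposited them, as 1 table per tumor. The cluster names are labels the authors deposited in a table of cells, a unit other than a measurement. Of 36530 features, 31049 were matched to a mouse symbol. Doublets were not treated. No cell identifier occurred in more than 1 library.

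UMIs were summed over the cells of a cluster or compartment and divided by their total (CPM). Poisson intervals of levels, Clopper-Pearson intervals of shares and conditional binomial intervals of log2 ratios were exact, at 95%. A member was called between tumors at 2-fold or more, with an interval without 0 and at least 20 UMIs over both tumors. Where a gene had no UMI, 3 UMIs over the group stood in as its floor. The ratio script was checked on simulated data. The members and gene lists were chosen with earlier results of these data known. Of the pathway list, at most 6 genes past 2-fold in stroma or tumor cells were named, by size of ratio, with Igf2r and Insr, and for each member up to 3 genes of the most similar pattern among features with at least 500 UMIs, on log2(CPM + 10). Ide was not analysed here, and 1 allele of the mice is not reported here. Python 3.11.15, numpy 2.4.6, pandas 2.3.3, scipy 1.17.1, matplotlib 3.10.9, R 4.3.3 and edgeR 4.0.16 (scaling factors only) were used.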

Additional observations from a re-analysis of the deposited data

Results flagged for a closer look

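In 2 genes the direction between tumors was opposite in different compartments, and these differences were not tested. Regressed against untreated, Igfbp5 was higher in tumor cells and lower in stroma, with log2 ratios 4.42 apart. In blood vessel cells Igfbp5 was higher as well, 3.35 apart from stroma, from 12 UMIs in the regressed and 9 in the untreated tumor. Progressed against untreated, Igfbp3 was higher in tumor cells and lower in stroma, 4.25 apart. Igfbp3 was also lower in blood vessel cells, 4.19 apart from tumor cells, and 1 blood vessel cell held 141 of the 259 untreated UMIs. As given above, the untreated tumor cells held few UMIs of either gene. Both stromal ratios turned positive over the shared stromal clusters given the same weight.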

How the results depend on the processing

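With 1 tumor per group no replicate could be left out. No paired analysis was possible because each group was 1 tumor with no replicate number. Of the log2 ratios of members under the alternatives, 441 moved by less than their counting interval and 122 by more. A further 7, all called in the main analysis, reversed. Changes of sign in ratios that were not called are counted within the 441 and 122. Such a ratio was Igfbp5 of progressed against untreated tumor cells, at 0.58, and at -1.73 without the richest cell of each tumor. Those that reversed were, over the shared stromal clusters given the same weight, Igfbp5 of regressed against untreated (0.86), Igfbp2 and Igfbp6 of progressed against regressed (-0.020 and 0.036), and Igfbp3 and Igfbp5 of progressed against untreated (0.45 and 0.44). With cells weighted equally, stromal Igfbp2 of progressed against regressed was -0.12. In Tumor1 alone, Igfbp3 of progressed against regressed was 1.24.

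Counts of members called were within 1.5 times the main count in 81 cases and outside in 12. In tumor cells, Tumor1 alone gave 3 for regressed against untreated, and for progressed against untreated leaving out the deepest 5% of cells gave 1, as did cells weighted equally. In stroma, progressed against regressed gave 3 with cells weighted equally and 2 in the shared clusters, and progressed against untreated gave 1 there. In immune cells, progressed against untreated gave 2 with trimmed-mean scaling, without the top 5% of cells, with cells weighted equally and without Monocytes2, and 3 at 1.5-fold. In blood vessel cells, a minimum of 100 UMIs gave 3 for regressed against untreated. Leaving out the richest cell of a member, and the alternatives for the leading binding protein, were chosen after seeing the data. Under the latter Igfbp4 led in 14 to 15 of 18 untreated clusters, Igfbp7 in 18 of 18 regressed and Igfbp4 in 7 to 9 progressed clusters. Depth limits tumor cells and blood vessel cells most, with 48 untreated tumor cells and 28 progressed blood vessel cells.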
